A study of Mus musculus with 6 samples.

Results

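Most stretches of CG-rich mouse DNA are read either as nearly free of methylation or as nearly fully methylated. The regions described here are the exceptions: runs of cytosines on chromosomes 1 to 19 whose methylation level lay between 30% and 70%, bounds included, in all 6 samples of a dendritic cell culture. A run was 3 or more listed cytosines with neighbours at most 100 bp apart, and a run had to hold 20 or more reads in each sample. The level of a run is the share of methylated reads among its reads, in percent. Reads of a run are summed over its cytosines, so a read counts once for each listed cytosine it covers. Of 69246 runs on all chromosomes, 68039 were autosomal, 31568 of these had 20 reads in each sample, and 696 (2.20%) were selected on their levels. These 696 are called members below. Because the levels of all 6 samples chose them, those levels are given as a description. The comparisons of stages below use the same levels, which the rule limits, so they are a description too.

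Methylation was measured by reduced representation bisulfite sequencing, which reads cytosines near the cut sites of the enzymes MspI and TaqI. All samples were bone marrow cells of C57BL/6J mice labelled male. The day 0 samples (replicates 2 and 3) were marrow before culture, the day 4 samples (replicates 1 and 2) carry the label common myeloid progenitor, and the day 7 samples (replicates 1 and 4) carry the label BMDC, bone marrow derived dendritic cell. The cultured cells grew in RPMI medium with 20% supernatant of a transfected SP2/0 line that contained Flt3L, the cytokine that drives dendritic cell growth, and all live cells were taken at days 4 and 7 without a sort. With 2 samples a stage, and no label that ties samples to animals, the spread between replicates may be technical. A methylation table holds no transcript markers, so the labelled cell types were not checked here.

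Methylation at CG pairs is copied at each cell division, and an autosomal stretch can read as intermediate in several ways. At imprinted control regions, 1 parental copy is methylated in every cell and the other is free of methylation. At the border of an unmethylated CpG island, methylated and unmethylated cytosines lie side by side in the same run. A mixture of cells that differ at a site gives the same level. Reads of these files are summed over copies and cells, so an intermediate level cannot be assigned to copies, to cells or to single cytosines from the level of the run alone. The level of the DNA beside a member was not used to choose it. The rule used the reads summed over a member's cytosines, so the levels of single cytosines are tied to the rule through that sum. Both are given below.

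Sequences are shown for 6 members that lie before or across a gene start. They are examples from the 2.71% of members that matched a promoter, as given below, and do not stand for the other members. The spacing of the listed cytosines was matched to RefSeq promoter windows of the GRCm38.p6 build (250 bases before to 50 after a gene start). A window had to hold at least 3 of the cytosines of a run. Each line gives the gene, the strand, the stretch before its start and the bases 5′ to 3′ on the gene's strand, with the CG pairs measured in the member in capitals and every other base in lower case.
Meg3, + strand, chr12:109540881-109540955: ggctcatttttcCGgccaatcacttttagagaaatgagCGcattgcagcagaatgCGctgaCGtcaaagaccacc
Commd1, - strand, chr11:22972872-22973005: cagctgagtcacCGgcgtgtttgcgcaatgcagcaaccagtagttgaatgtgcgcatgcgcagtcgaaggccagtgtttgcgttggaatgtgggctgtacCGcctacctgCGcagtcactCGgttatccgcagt
Sox30, + strand, chr11:45980148-45980287: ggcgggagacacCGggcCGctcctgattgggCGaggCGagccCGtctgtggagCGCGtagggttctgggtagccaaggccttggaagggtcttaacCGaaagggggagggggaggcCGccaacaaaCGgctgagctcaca
Map10, + strand, chr8:125669585-125669785: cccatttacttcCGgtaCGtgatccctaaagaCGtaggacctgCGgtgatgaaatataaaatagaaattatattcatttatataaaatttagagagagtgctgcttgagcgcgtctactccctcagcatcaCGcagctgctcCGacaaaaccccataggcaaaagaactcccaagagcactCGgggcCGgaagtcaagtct
Csf2ra, - strand, chr19:61228500-61228628: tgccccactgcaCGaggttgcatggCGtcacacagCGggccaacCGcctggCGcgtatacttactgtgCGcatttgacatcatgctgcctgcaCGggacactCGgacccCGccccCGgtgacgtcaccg
Fbxo27, + strand, chr7:28692952-28693127: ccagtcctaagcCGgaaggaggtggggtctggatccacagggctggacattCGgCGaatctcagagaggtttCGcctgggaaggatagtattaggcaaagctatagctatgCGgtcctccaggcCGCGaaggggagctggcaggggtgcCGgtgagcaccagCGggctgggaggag

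The member at the start of Meg3, a noncoding RNA transcribed from the maternal copy of an imprinted cluster, held 7 cytosines (chr12:110779103-110779280 in the mm9 coordinates of the files). Its level was 51.8% and 30.3% before culture, 40.5% and 44.2% on day 4, and 58.0% and 53.6% on day 7. The day 7 pair was higher than the day 4 pair, and the day 0 replicates lay on either side of the day 4 pair. Summed over all samples, its single cytosines lay between 38.6% and 49.2%, so each cytosine was intermediate. The 4 CG pairs in capitals above, which lie before the start, are among these.

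The Commd1 member (chr11:22872884-22872992, 4 cytosines) lay before a matched start of Commd1, a gene of copper metabolism whose intron holds the imprinted gene Zrsr1. That start was 18 bp from the member, and another matched start of Commd1 was 9292 bp from it. The level of the member was 56.3% and 46.2% before culture, 45.7% and 64.1% on day 4, and 32.3% and 40.9% on day 7. Both day 7 samples lay below all the others, but no stage difference was called in the fit over all runs described below. The day 7 levels rest on 31 and 22 reads summed over the 4 cytosines. Its cytosines summed over samples lay between 46.2% and 63.0%. The DNA on both sides was also intermediate, at 41.1% and 38.1% within 1000 bp. The matched start of Zrsr1 lay 879 bp from the member, and the run in its promoter window had 28.5% to 56.5% over the samples, so 1 sample below 30% kept it out of the members.

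The Sox30 member (chr11:45793662-45793776, 10 cytosines) had run levels of 42.1% and 58.1% before culture, 55.9% and 49.5% on day 4, and 36.3% and 49.4% on day 7, with stages that overlap. Sox30 is a transcription factor of male germ cells. Its single cytosines were less alike. Going toward the gene start, the highest had 78.8%, and the last 3 had 16.2%, 6.0% and 1.5%. The DNA before the member was at 80.4% and the DNA after it at 1.13%.

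Map10, which encodes a microtubule-associated protein, showed the same order (chr8:128193497-128193672, 8 cytosines). The run had 47.4% and 41.6% before culture, 45.5% and 50.7% on day 4, and 48.8% and 34.3% on day 7, which overlap. Its first 4 cytosines lay between 74.0% and 86.0%, and its last 2, nearest the start, were at 1.0% and 1.9%.

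The Csf2ra member (chr19:61304415-61304518, 10 cytosines) lay before the gene of the alpha chain of the receptor for GM-CSF, a growth factor of myeloid cells. It had 64.5% and 66.0% before culture, 51.5% and 40.2% on day 4, and 50% and 53.8% on day 7, so both day 0 samples lay above the other 4. The day 7 pair lay below the day 0 pair in 10.9% of all members. No stage difference of the Csf2ra member was called in the fit over all runs described below. The 6 cytosines far from the start had 60.6% to 93.1%, and the 4 nearest the start had 11.1% to 16.7%. In the sequence above this is the step between the sixth and the seventh capital pair.

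Fbxo27, which encodes an F-box protein of ubiquitin ligases, gave a run of 10 cytosines between 27.6% and 67.7% (chr7:29477983-29478170). Its level was 38.8% and 34.2% before culture, 46.8% and 46.8% on day 4, and 51.5% and 51.6% on day 7. The 3 pairs of samples did not overlap and lay in the order of the days. No difference between stages was called for this or any other member in the edgeR fit over all runs described below.

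**Figure D1:**
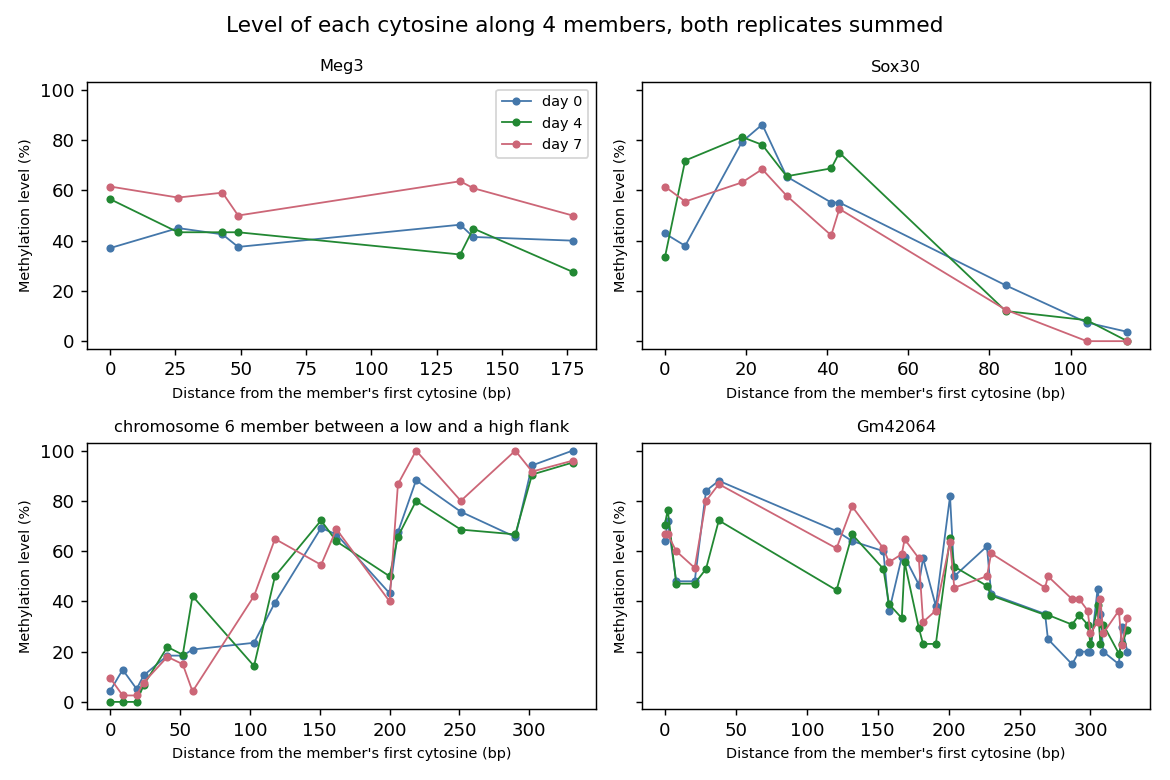
Methylation level (%) of each cytosine against its distance in bp from the first cytosine of the member, with both replicates of a stage summed and 1 line per stage. The Meg3 line stays between 27.6% and 63.6%, whereas Sox30 falls below 25% over its last 3 cytosines and the member on chromosome 6 rises from near 0 to over 90% at each stage.

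Chromosome 18 had no windows and was not matched. Of the 664 members on the other 18 autosomes, 18 (2.71%) matched a promoter window, against 14.4% of all autosomal runs with 20 reads on the same chromosomes. Of runs below 30% in all samples 24.9% matched, and of runs above 70% in all samples 0.656%. The share of members near promoters thus lay between those of the low and the high runs. Within 5000 bp of a matched start, in the coordinates of the files, lay 83 members (12.5%) against 28.8% of all runs. The other 12 genes of matched windows were Gm46162, Gm40862, Gm46527, Gm42064, Gm32850, Gm46055, Mgat4c, Ddr1, Myo1h, Cabp1, Gdf1 and Csrnp1. Ddr1, a collagen receptor kinase, had the lowest mean of the 18 at 40.1% ± 5.11 (SD, n = 6 samples), and Gm32850 the highest at 61.1% ± 4.22 (SD, n = 6). The letters TGCCGC, on either strand, stood in 4 of the 18 windows and in 11.6% of all 32851 windows. They carry the core of the motif of ZFP57, a protein that keeps methylation at imprinted sites. The letters hold a CG pair, and the 18 windows had a median of 12.5 CG pairs against 7 in all windows. The part of CG content in these shares was not tested. Meg3 was among the 4, with the letters outside the stretch printed above.

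**Figure D2:**
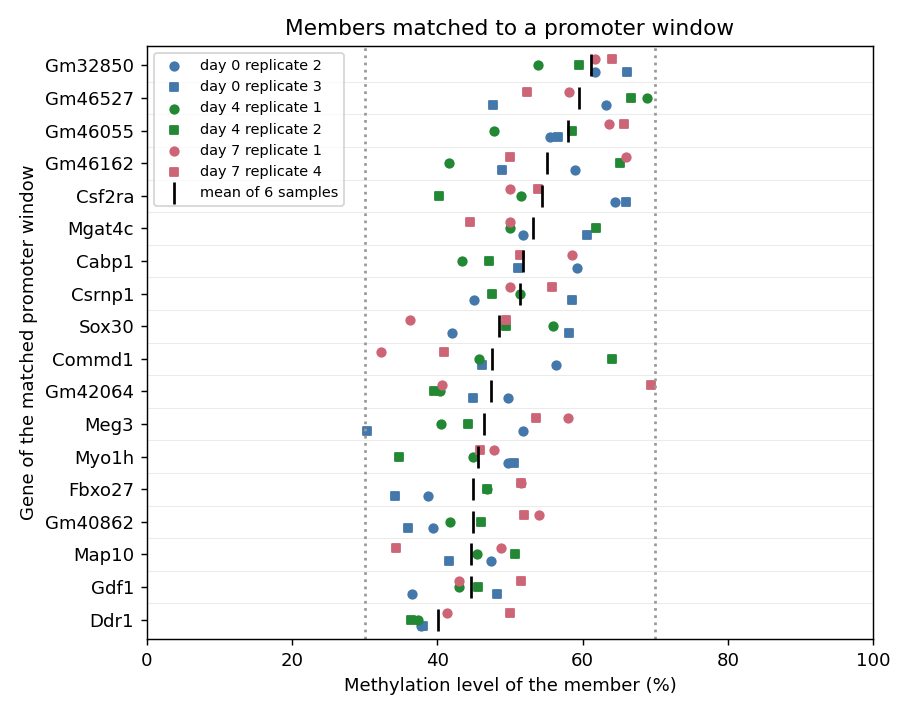
Methylation level (%) of the 18 members matched to a promoter window, 1 row per gene, in each of the 6 samples (colour for the stage, shape for the replicate), with the mean of the 6 as a black bar and the bounds of the choice dotted. Means run from 40.1% for Ddr1 to 61.1% for Gm32850, and the single sample at 69.4% in the Gm42064 row is day 7 replicate 4.

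Of 25 textbook imprinted genes, 19 had a promoter window and 8 had a run matched to it, in 9 runs. Of these runs 1, that of Meg3, was a member. The windows lie at gene starts, and whether they hold the imprinted control regions was not tested. Of the other 8 runs, 3 had a level within the bounds in some samples: that of Zrsr1, and those of Plagl1 and Igf2r, which had as few as 4 and 9 reads in their shallowest sample. The 5 remaining runs lay outside the bounds in every sample. The window of Grb10, a growth-restraining adaptor, was at most 3.93% methylated in its 2 runs, Zdbf2 at most 7.53% and Inpp5f at most 0.667%. Mcts2, a retrogene, had 84.2% to 96.7%. A member of 5 cytosines lay 1205 bp from the matched start of Grb10 (chr11:11938628-11938774), with 42.4% and 43.8% before culture, 46.2% and 52.8% on day 4, and 51.4% and 45.9% on day 7. Both day 0 samples were the lowest of its 6, but no stage difference was called for it in the fit over all runs. The megabase around Meg3 held 2 further members, before the start, the nearer of them by 80978 bp. This one had levels from 30% to 69.2%, the widest range of all members at 39.2 points, on 20 to 54 reads.

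In each sample the members' mean level lay between 48.5% and 52.1%. By stage it was 49.2% ± 0.964, 50.9% ± 1.08 and 51.8% ± 0.486 (SD, n = 2 samples each). The mean of all 31568 runs was 34.9% ± 0.70, 35.9% ± 0.770 and 36.9% ± 0.489 in the same order. The mean over 6 samples was from 30% to under 40% in 45 members, from 40% to under 50% in 288, from 50% to under 60% in 290 and from 60% to 70% in 73. A member's highest and lowest sample differed by a median of 18.6 points, with extremes of 3.75 and 39.2.

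**Figure D3:**
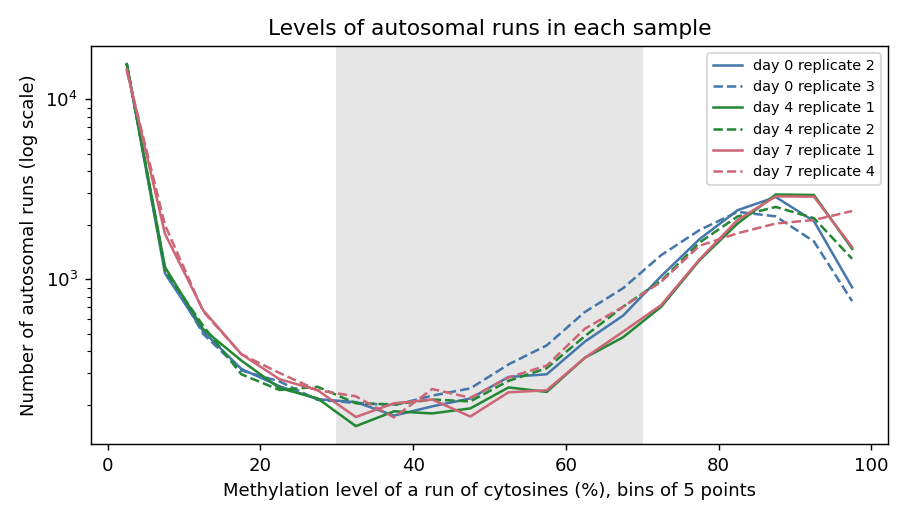
Number of autosomal runs with 20 reads in each sample (log scale) against their methylation level (%, bins of 5 points), 1 line per sample, with the range of 30% to 70% shaded. Each sample has its highest count below 5% and a second rise above 80%, and 6.53% to 10.3% of runs lie in the shaded range in any 1 sample.

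The 2 replicates of a stage differed by a median of 6.48, 6.52 and 7.59 points per member at days 0, 4 and 7. Counting error alone gives that difference a median standard error of 8.10, 8.51 and 11.1 points, which covers read sampling only. A standard error and a median difference are unlike measures, so their sizes are not compared. The error takes counts of neighbouring cytosines as independent, and the rule itself limits how far replicates of a member can differ. The replicates differed by over 2 such errors in 10.9%, 11.2% and 4.74% of members. Members held fewer reads than all runs, with a median of 29 to 89 per sample against 35 to 110. These are sums over cytosines, and the median member had 5 cytosines against 7 in all runs. Day 7 replicate 4 was the shallowest sample. None of the 696 members had over 5 times the median reads in every sample, against 132 of the 31568 autosomal runs with 20 reads. Such runs were thus rare among all runs too, so their absence is not particular to members. The count does not cover depth in a single sample: in day 7 replicate 4 the deepest member held 762 reads, where the median of all runs was 35.

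A large majority of runs that were intermediate in 2 stages were so in the remaining one, which the choice then did not use. Of 842 runs within the bounds in the day 4 and day 7 samples, 82.7% (exact binomial 95% interval 79.9% to 85.2%) were within them in both day 0 samples, against 5.65% of all runs. For day 4 the share was 76.5% of 910 (73.6% to 79.2%), against 4.70%. For day 7 it was 65.0% of 1070 (62.1% to 67.9%), against 4.12%. The 696 members are the numerator of all 3 shares, and the share over all runs falls in the same order, so the intervals, which cover counting over runs and not samples, do not compare the stages. When 1 sample alone was left out of the choice, day 7 replicate 1 was within the bounds in 85.0% and day 7 replicate 4 in 78.6%, at median depths of 66 and 29 reads, against 87.2% to 92.2% for the other 4 samples at 57 to 86 reads. The part of depth in this was not tested. Of the 1070 runs, 54 were above 70% in both day 7 samples and 6 were below 30% in both. With day 0 left out the counts were 4 above and 14 below, and with day 4 left out 29 and 15.

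**Figure D4:**
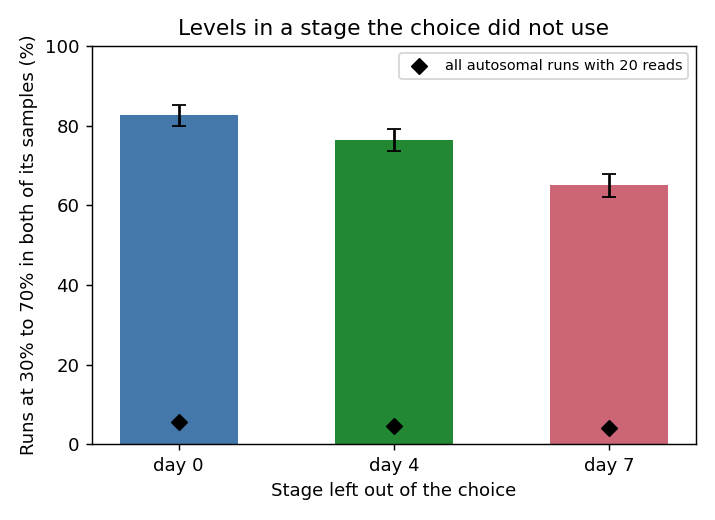
Share (%) of runs chosen in the other 2 stages that lay at 30% to 70% in both samples of the stage named below each bar. Bars have exact binomial 95% intervals, and diamonds give the share among all autosomal runs with 20 reads: bars stand at 82.7%, 76.5% and 65.0%, diamonds at 4.12% to 5.65%.

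Stages were compared by an edgeR likelihood ratio test over 56105 runs, with Benjamini-Hochberg adjustment over all of them, and a call needed an adjusted p below 0.05 and a difference of 20 points. The rule caps a member's difference at 40 points, so the counts describe the members and nothing is read from them. Of 696 members, 0 were called in day 4 against day 0 (0.00178% of all runs), 0 in day 7 against day 4 (0.451%) and 0 in day 7 against day 0 (0.497%). The smallest adjusted p of a member in this edgeR test was 0.209, for day 7 against day 0. At an unadjusted p below 0.05 in this edgeR test stood 5 members (0.718%, against 6.6% of all runs), 3 (0.431%, against 11.4%) and 5 (0.718%, against 12.9%) in the same order. As a fraction each member share was below 0.05, the share expected without change. The 0 calls therefore say little about members. By edgeR's quasi-likelihood test 0 members were called in each contrast (0%, 0.296% and 0.31% of all runs), and by limma 0 (0%, 0.112% and 0.0838%). Fisher's exact test on reads pooled over replicates called 2 (0.638%), 2 (1.04%) and 3 (1.4%). It leaves out the spread between samples and takes each read as independent at every cytosine it covers.

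The member that this pooled Fisher test called in both day 7 contrasts held 14 cytosines (chr15:88898410-88898609). It had 49.8% and 32.6% before culture, 44.3% and 46.6% on day 4, and 66.7% and 66.7% on day 7, so both day 7 samples lay above the other 4. A member of 5 cytosines (chr9:46169875-46170016) moved the same way between days 0 and 7, from 45.5% and 35.7% to 63.0% and 67.4%, with 53.3% and 51.7% at day 4. A member on chromosome 8 (chr8:67027943-67028106, 5 cytosines) had 30.2% and 42.2% before culture, 45.8% and 47.9% on day 4, and 63.3% and 62.2% on day 7. On chromosome 2 a member of 5 cytosines (chr2:121132485-121132523) was highest on day 4, with 53.2% and 56.8%, against 30.3% and 37.3% before culture and 36.8% and 40.9% on day 7. On chromosome 15 another (chr15:100550414-100550614, 6 cytosines) was lowest on day 4, with 30.3% and 33.3%, against 46.5% and 34.9% before culture and 49.3% and 56.8% on day 7. The last of these calls was a run of 6 cytosines (chr7:102681806-102681893) with 48.6% and 38.9% before culture, 69.3% and 66.7% on day 4, and 63.3% and 56.7% on day 7. These 6 were named after their values were seen.

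Between days 0 and 7 the members' difference had a median of 2.65 points, with quartiles at -3.04 and 8.06, and between days 0 and 4 the median was 1.60 points. Over all tested runs the medians were 1.53 and 0.44 points. The day 7 pair was higher than the day 0 pair, without overlap, in 184 members (26.4%), against 32.2% of all runs with 20 reads, and lower in 76 (10.9%), against 5.98%.

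Members held about as many cytosines as runs above 70% in all samples, fewer than runs below 30%, and were more thinly spaced than either. The median member had 5 cytosines (range 3 to 31) with a mean spacing of 31.0 bp, against 9 cytosines and 14.7 bp in runs below 30% in all samples, and 5 cytosines and 25.25 bp in runs above 70%. A spacing of 10 bp or less was found in 3.30% of members, 7.49% of the high runs, 24.3% of the low runs and 16.6% of all runs. By number of cytosines, members made up 4.34% of runs of 3, 2.91% of runs of 5 and 0.450% of runs of 16 or more. By chromosome the share of runs that were members was between 1.48% (chromosome 17) and 3.24% (chromosome 18).

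An intermediate level of a member was often not that of its cytosines. The rule holds their summed level within the bounds, so the shares below are partly set by the choice. Shares for other runs are not given here. Summed over samples, 64.9% of the 4125 member cytosines lay within 30% to 70%, 8.17% were below 20% and 6.81% above 80%. All cytosines lay within 20% to 80% in 355 of 696 members (51.0%), whereas 92 (13.2%) held both a cytosine below 20% and one above 80%. The median gap between a member's highest and lowest cytosine was 47.2 points. The pattern along members was alike at each stage: across 1247 cytosines of 301 members, each with 20 reads per stage, a cytosine's deviation from the mean of its member correlated between stages at r = 0.87 to 0.89. These points share libraries and neighbouring reads, so r is a description.

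The DNA beside members was also often intermediate. Within 1000 bp of a member, leaving out cytosines of members, 522 sides of 415 members had 10 reads in each stage. Of these sides 35.6% (exact binomial 95% interval 31.5% to 39.9%, counting error only) were at 30% to 70%, against 8.87% (8.56% to 9.19%) of the sides of all runs. Another 33.1% were below 30%, against 68.2%, and 31.2% were above 70%, against 22.9%. Among the 107 members read on both sides, 28 (26.2%) lay between a low and a high side, against 6.45% of all such runs, and 21 (19.6%) lay between intermediate sides, against 1.22%.

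**Figure D5:**
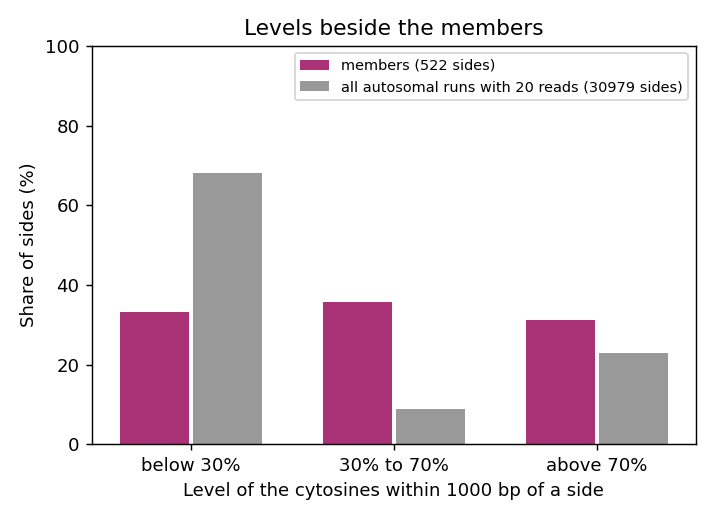
Share (%) of sides whose cytosines within 1000 bp were below 30%, at 30% to 70% or above 70%, for the 522 sides of members and the 30979 sides of all autosomal runs with 20 reads. Members have 35.6% of sides in the middle class and all runs 8.87%.

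Members between a low and a high side often ran as slopes. In the 28 of them the cytosine next to the low side had a median of 27.6% and the one next to the high side 62.9%, and the latter was higher in 23 of 28. The end cytosine next to the higher side was also the higher one in 15 of 21 members between intermediate sides and in 18 of 24 between a low and an intermediate side. In 8 of these 28 all cytosines lay within 20% to 80%, against 13 of the 21 members between intermediate sides, whose end cytosines had medians of 45.0% and 52.9%. The clearest slope among the members with most cytosines was an 18-cytosine run on chromosome 6 (chr6:39068737-39069068). Its level was 48.0% and 36.8% before culture, 48.2% and 43.3% on day 4, and 38.8% and 43.1% on day 7, and the stages overlap. Its first 4 cytosines had 2.8% to 8.4%, its last 2 had 91.9% and 96.8%, and the DNA beside it had 0.372% and 94.0%.

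The member with most cytosines held 31 (chr19:5307151-5307477), 16 of them in the promoter window of Gm42064. It had 49.7% and 44.9% before culture, 40.3% and 39.5% on day 4, and 40.6% and 69.4% on day 7. The high value is day 7 replicate 4 alone. A run of 26 cytosines (chr12:20318229-20318486) had 34.5% and 34.1%, 37.1% and 34.03%, and 44.2% and 36.25% at days 0, 4 and 7. Runs of 20 (chr12:18142846-18143056) and 18 cytosines (chr1:93507979-93508414) had means of 59.9% ± 7.94 and 61.0% ± 2.27 (SD, n = 6). The others of the 10 had 17 to 20 cytosines and means of 40.7% to 59.1%, with 2 taken of the 7 members that tied at 17. Some were steep inside: the run of 20 at chr1:129572837-129573425 held a cytosine at 0% and one at 88.4%, 1173 bp from the matched start of Tmem163, a zinc transporter gene.

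Of members with 50 or more reads in each sample, the one closest to 50% throughout held 6 cytosines (chr4:142499776-142499937). It had 53.1% and 47.9% before culture, 53.3% and 55.6% on day 4, and 53.8% and 48.0% on day 7. Its single cytosines spanned 10.6% to 93.9%. The member at chr5:125241456-125241609 (7 cytosines) had 42.9% and 46.7%, 55.5% and 55%, and 50% and 48.5%, with cytosines between 30.4% and 80.4%. The other 3 of the 5 closest to 50% had means of 49.2%, 51.0% and 51.1%. Of the 5, 1 had all its cytosines within 20% to 80%, a run of 5 at chr17:23677797-23677920 with 20% to 72.4%.

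Of the 696 members, 25 (3.59%) lay within 5 kb of another, in 11 groups. Only 262 members had any run with 20 reads within 5 kb, and the nearest such run was low in 141, high in 43, a member in 13 and of changing class in 65, where 2.20% of all runs are members. The group with most cytosines had 4 members with 37 cytosines over 13331 bp of chromosome 18 (chr18:37903454-37916784), with means of 54.9% to 61.6%. It lay in the megabase with most members, where 15 of 55 runs were members, 11 were low, 6 high and 23 changed class between samples. On chromosome 4, 2 members 15 and 17 cytosines long (chr4:146649492-146650150) had means of 39.7% and 38.5%. On chromosome 14, 3 members within 696 bp (chr14:15141540-15142235) had means of 53.3%, 42.5% and 48.4%, in a megabase where 4 of 8 runs were members. Reads per cytosine in these 9 members were 0.719 to 1.45 times the median of all runs.

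The bounds do not separate a class of their own: 610 further runs were within them in 5 of 6 samples and 494 in 4. Just inside, 14 members had a lowest sample at exactly 30% and 16 a highest at exactly 70%, among them chr12:77503986-77504014 (30% to 36.9%) and chr10:80848011-80848166 (46.8% to 70%). Just outside, the 3 nearest runs at the lower bound, such as chr6:3133234-3133382, had a lowest sample of 29.9%, and the 3 at the upper bound, such as chr2:172379617-172379799, a highest of 70.1%.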

How the data were processed

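The deposited table gives, for 652716 cytosines and each of 6 samples, the methylated fraction and the counts of unmethylated and methylated reads, per the file headers. Reads were processed by the authors with Bismark and Bowtie2 on mm9, per the submitters' processing notes; their versions and the treatment of duplicates are not given in these sources. Reads at listed cytosines came to 3641141 to 10242334 per sample. Levels here were computed from the deposited counts summed over a run, and the deposited fraction was not averaged. The members and lists were chosen with earlier results of these data known.

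Runs with 10 reads in each sample and both kinds of read (56105) entered edgeR 4.0.16 (R 4.3.3): methylated and unmethylated counts, 1 term per sample, 1 methylation term per stage, all 6 samples in 1 model, a likelihood ratio test. The method was tested on simulated data. Alternatives were limma 3.58.1 with log ratios (pseudocount 0.5), a quasi-likelihood test in edgeR, Fisher's exact test of reads pooled by stage, other bounds, depths and gaps, and each sample left out.

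Named were the 10 members with most cytosines, the 5 closest to 50% with 50 reads in each sample, the 3 groups within 5 kb with most cytosines, members called by edgeR (there were 0), examples at the bounds and those matched to genes; the members called by Fisher's test were added after their values were seen. No mm9 annotation was used. Gene names come from matching cytosine spacing to RefSeq promoter windows (GRCm38.p6): 2080 runs that matched at least 9 cytosines fixed the shift between the builds, 98.5% of them shared it with a neighbour, and the shift then placed runs with at least 3 matching cytosines, for 5595 gene symbols. Distances are in mm9. Exact binomial intervals are at 95% (Python 3.11.15, scipy 1.17.1). These intervals take runs or sides as independent, although 522 sides came from 415 members, and they cover counting error only. Molecules were not tagged, which bears on the read counts and not on these intervals.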

Additional observations from a re-analysis of the deposited data

How the results depend on the processing

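The number of members depends on the rule: 1235 at bounds of 25% to 75%, 73 at 40% to 60%, 1326 at 10 reads and 78 at 50 reads in each sample, 374 and 1146 with gaps of at most 50 and 200 bp, and 430 with at least 5 cytosines, against 696. With the mean of cytosine fractions as the level there were 703, of which 598 were also members. Leaving 1 sample out gave 758 to 1961 members. The largest count came without day 7 replicate 4, the shallowest sample, whose minimum of 20 reads then also fell away; with that minimum kept and only its bounds dropped, an alternative chosen after seeing the data, there were 886. Without that sample 120 of the 1961 members lay within 5 kb of another. Without any other sample it was 30 to 34 of 758 to 830 members, and with all samples 25 of 696. The sets differ in size, so these counts do not compare how closely members group. With all samples and a distance of 20 kb there were 61. No count of called members left 0 except under Fisher's exact test of reads pooled by stage (2, 2 and 3). Intermediate sides made up 54.98% with limits of 20% and 80% (17.3% for all runs), 31.3% with 20 reads per side, and 28.4% to 34.9% with 1 sample left out. The share in the stage left out was 86.3%, 82.4% and 71.1% at days 0, 4 and 7 with bounds of 25% to 75%, and 83.0% at day 4 and 68.4% at day 7 with 50 reads. Within 30% to 70% lay all cytosines of 140 members, and 345 to 354 members were even at 20% to 80% with 1 sample left out. No paired analysis was possible because the groups compared share fewer than 2 replicate numbers. Depth limits single members: the median member had 28 reads, summed over its cytosines, in its shallowest sample.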
